A study of Homo sapiens with 38 samples.

Results

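The comparison described here asks what a RAF inhibitor adds to cells in which MEK is already inhibited. It sets 3 arrays of parental A375 cells exposed for 24 h to 10 nM GSK212 together with 1 µM GSK436 against 3 arrays of the same cells exposed to 10 nM GSK212 alone, and these 6 of the 38 arrays of the series were chosen by their labels. A375 is an established human melanoma line, grown here in RPMI1640 medium with 10% serum. GSK436 (GSK2118436, dabrafenib) inhibits RAF kinases and GSK212 (GSK1120212, trametinib) inhibits MEK. Both groups carried GSK212 for the same time, so that GSK436 was the only difference between them given in the labels. The other 12 groups are used only to set these changes in context. They are parental cells in 10 nM GSK212 plus 0.1 µM GSK436 (3 arrays), in 0.1 or 1 µM GSK436 (2 each), in 30 nM GSK212 (2) and in the vehicle DMSO (3), and the same treatments in 16R6-4, a single A375-derived clone with acquired resistance to GSK436 (2 DMSO arrays and 3 of each other treatment). RNA was extracted with Trizol and 500 ng of it was labelled with biotin as cRNA. Whether the arrays of a treatment are separate cultures is not in the labels. The p-values therefore weigh a difference against the spread among arrays alone, which may be technical, and 3 arrays a group limit the precision.

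Background to the genes that changed is the integrated stress response. In this pathway kinases that sense uncharged tRNA, unfolded protein, haem shortage or double-stranded RNA phosphorylate the initiation factor eIF2, which slows translation of most messages but favours that of the transcription factor ATF4. ATF4, with partners of the C/EBP family, switches on genes that make amino acids, import them and load them onto tRNA, and also genes that limit the response or promote cell death. Melanoma lines driven through RAF and MEK use ERK signalling for growth, and its output is read from phosphatases such as DUSP6 and from sprouty proteins.

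Signals were the authors' MAS5 intensities, on a linear scale with no unit, and a fold change below is a difference of log2(signal + 2.8) fitted with limma over all 38 arrays, followed by its standard error. A gene was called where p, adjusted by Benjamini and Hochberg over all 18063 genes, was under 0.05 and the fold change at least 1 on the log2 scale. The median signal over probe sets was 43.0 to 51.1 on the combination arrays and 29.0 to 39.7 on the GSK212 arrays, while the actin 3′ to 5′ ratio, which is raised by degraded RNA, was 14.9 to 27.5 on the combination arrays and 5.90 to 32.1 on the GSK212 arrays. Arrays of a group correlated across genes with r of 0.895 to 0.931, and arrays of different groups with 0.887 to 0.922. The melanoma lineage genes SOX10 (770 to 1363 over the 6 arrays) and MIA (2249 to 3313) were present, whereas the pigment genes PMEL, MLANA, TYR and TYRP1 lay between 1.63 and 59.0, around the pooled median signal of 34.9. Summed signals of the measured markers were 4949.7 to 5793 in the combination and 5360.0 to 6120.5 in GSK212 for 19 pigment cell genes, 11676 to 13022 in the combination and 10559.7 to 15752 in GSK212 for 13 epithelial genes, 304 to 425 in the combination and 225 to 393 in GSK212 for 9 leukocyte genes, and 605 to 769 in the combination and 533 to 834 in GSK212 for 9 fibroblast and endothelial genes. Limma called 0 of these markers, with 4, 1, 1 and 2 at an unadjusted p under 0.05. In the same comparison 1949 of all 18063 genes had such a p. In bulk RNA, fewer cells of a type and less RNA per cell cannot be told apart.

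Adding 1 µM GSK436 to 10 nM GSK212 raised ATF4, genes of its stress response and enzymes that make amino acids and load them onto tRNA. Of 18063 genes, 62 were called (0.343% of the genes tested), 47 higher (0.26%) and 15 lower (0.083%) in the combination. Among 62 measured genes of 4 lists (stress response regulators and effectors, amino acid and one-carbon synthesis, amino acid transporters, aminoacyl-tRNA synthetases) 26 rose and 0 fell, with 42 at an unadjusted p under 0.05, 39 of them higher. These 26 made up 55.3% of all genes that rose. Over all 18063 genes, 1949 had an unadjusted p under 0.05. Among 408 measured genes of 26 other lists, PMAIP1 and HMOX1 rose and TGFBI fell. The lists were chosen with earlier results of these data known, so the contrast between them is not independent evidence. The mean log2 signal of the 62 stress and amino acid genes was 9.69, 9.75 and 9.67 on the combination arrays and 8.83, 8.75 and 8.61 on the GSK212 arrays, which did not overlap. All 62 called genes had arrays that did not overlap between the groups, as had 14.8% of all genes tested.

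How many genes rose or fell depended on how the arrays were put on a common scale. As deposited, the median change over all genes was 0.07 and 75.8% of the called genes were higher. After quantile normalization the median was −0.00064 and 64.9% of 74 called genes were higher. With each array centred on its median signal it was −0.34, and 18 of 73 called genes (24.7%) were higher; of the 62 calls, 31 held under this setting, and 13 of the 26 in the stress and amino acid lists. The changes below are on the deposited scale. With the actin ratio as a covariate 58 of the 62 calls held, including all 26 in the stress and amino acid lists. Without arrays with an actin ratio above 20, a setting added after seeing the data that leaves 1 combination array and 2 GSK212 arrays, 17 of the 62 and 10 of the 26 held.

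ATF4, the central transcription factor of the stress response, gave signals of 7587, 9029 and 8797 in the combination, against 3385, 3815 and 2953 in GSK212 alone. The lowest combination array was 7587 and the highest GSK212 array 3815, and the fold change was 1.33 ± 0.14, adjusted p = 1.19e-07. CEBPG, a C/EBP partner of ATF4, gave 315, 239.5 and 273 in the combination and 81.1, 113 and 116 in GSK212 (1.40 ± 0.20, adjusted p = 2.9e-05). DDIT3, which encodes the pro-apoptotic factor CHOP, gave 449.6, 513 and 605 in the combination and 231, 207 and 183 in GSK212 (1.32 ± 0.18, adjusted p = 2.17e-05). The means of these factors were 2.5, 2.67 and 2.52 times as high in the combination, and every combination array lay above every GSK212 array. TRIB3, a pseudokinase that restrains ATF4, rose by 1.63 ± 0.17 (adjusted p = 1.79e-07), with signals of 1681, 1773 and 1734 in the combination and 694, 523 and 474 in GSK212. ATF3, another transcription factor of the response, gave 561, 736 and 585 in the combination and 547, 564 and 699 in GSK212, which overlap (0.05 ± 0.21, adjusted p = 0.95). With median-centred arrays ATF4, CEBPG and DDIT3 lost their calls, at 0.92 (adjusted p = 0.0166, under the fold threshold), 0.99 (0.113) and 0.91 (0.0540).

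Within the stress response list the effectors INHBE, CHAC1, ASNS and NUPR1 had the largest changes. INHBE, a subunit of the secreted activin family, gave 288, 227 and 404 in the combination and 8.98, 18.4 and 27.8 in GSK212 (3.93 ± 0.46, adjusted p = 1.39e-06). CHAC1, which degrades glutathione, gave 454, 276 and 261 in the combination and 53.3, 30.9 and 8.77 in GSK212 (3.53 ± 0.63, adjusted p = 0.00148). All 3 GSK212 arrays of INHBE and 2 of 3 of CHAC1 were below the pooled median signal, so that the size of these folds rests on values near background, for which no detection calls were used. ASNS, the enzyme that makes asparagine from aspartate, was well above it in both groups, with 4546, 4479 and 4377 in the combination and 461, 518 and 382 in GSK212. Its mean was 9.85 times as high in the combination (3.30 ± 0.14, adjusted p = 2.78e-18), with the smallest p of the 18063 genes. NUPR1, a stress-induced chromatin protein, gave 1446, 1375 and 1368 in the combination and 327, 289.9 and 213 in GSK212 (2.35 ± 0.21, adjusted p = 4.81e-09).

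GDF15, a secreted stress cytokine, and SESN2, a sestrin that restrains mTORC1 when leucine is short, passed more narrowly. GDF15 gave 48.0, 64.8 and 25.6 in the combination and 4.93, 3.80 and 25.2 in GSK212 (2.03 ± 0.49, adjusted p = 0.0428). Its highest GSK212 array, at 25.2, all but reached its lowest combination array, at 25.6, and the adjusted p was 0.14 to 0.22 without GSK212 replicate 1 or 2 or combination replicate 1 or 2. SESN2 gave 339, 343 and 388 in the combination and 197, 171 and 102 in GSK212 (1.22 ± 0.28, adjusted p = 0.0358), and it held its call in 11 of 21 other settings, losing it without any one array other than GSK212 replicate 1 (adjusted p 0.065 to 0.27). The other 10 of 20 measured members of the list were not called. Of these CEBPB, a further C/EBP factor, was at 0.48 ± 0.12 (adjusted p = 0.0560) and DDIT4, an mTORC1 inhibitor, at 0.54 ± 0.21 (adjusted p = 0.31). PPP1R15A, which directs the phosphatase of eIF2, was at 0.44 ± 0.25 (adjusted p = 0.53), and ATF5, NDRG1, CTH, VLDLR, STC2 and FGF21 ranged from −0.96 to 0.86. The median over the 20 genes was 1.04, against 0.07 over all genes.

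**Figure D1:**
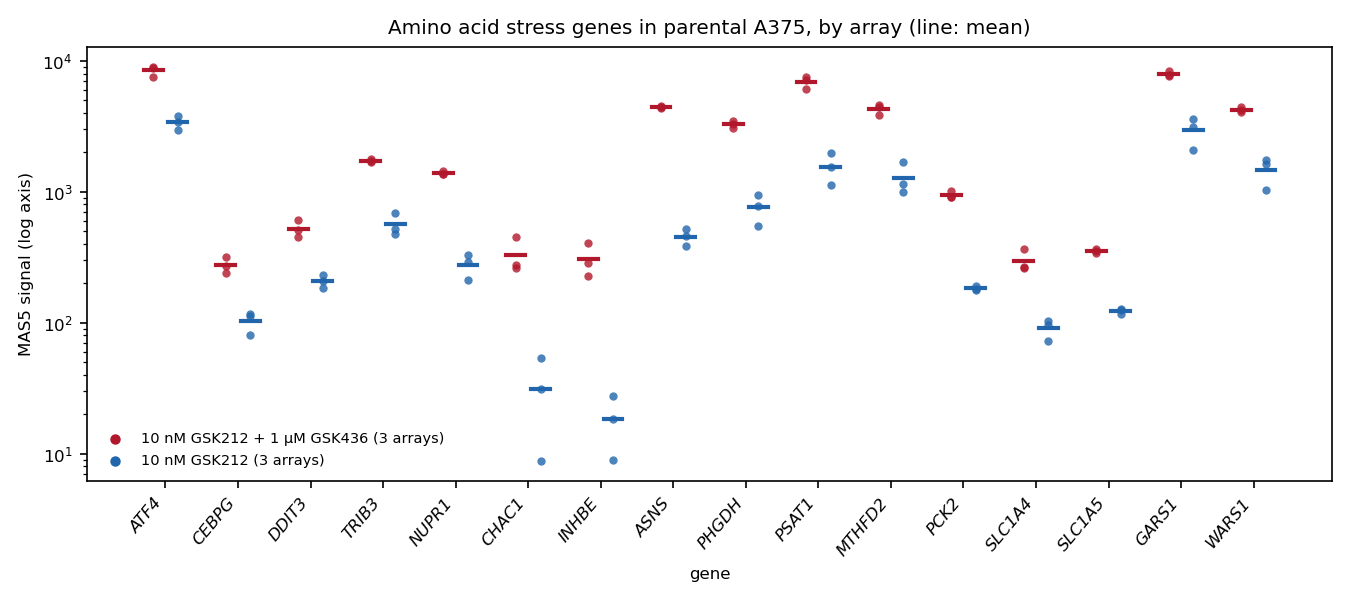
MAS5 signal (log axis) of 16 called stress and amino acid genes in parental A375, with 1 point an array and a line at the mean, in 10 nM GSK212 plus 1 µM GSK436 (red, left) and 10 nM GSK212 (blue, right). The arrays of the groups do not overlap for any of the 16 genes, and for ASNS the combination lies between 4377 and 4546 and GSK212 between 382 and 518.

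ATF4 and its C/EBP partners bind a composite element of the form TGATGNAA, and it was looked for, on both strands, in the 300 bases around the annotated start of each gene (250 before and 50 after, RefSeq, GRCh38.p14). Of the 47 genes that rose, 37 had a promoter entry, and 8 of these (21.6%) held the element, against 354 of 14156 promoters of the genes tested (2.5%) and 1003 of all 27305 promoters (3.67%). Of the 10 promoters of genes that fell, 0 held it. These are matches of letters, not sites shown to be bound. The 2 promoters below belong to genes with the steepest rises that hold a match, and the 3 shorter windows to aminoacyl-tRNA synthetase and amino acid genes. Capitals mark the match, which is printed as its reverse complement where it lies on the other strand. The ASNS promoter is on the minus strand and its match starts 68 bases before the start. The CHAC1 promoter is on the plus strand and its match, on the other strand, starts 209 bases before the start.
ASNS, chr7:97872359-97872658: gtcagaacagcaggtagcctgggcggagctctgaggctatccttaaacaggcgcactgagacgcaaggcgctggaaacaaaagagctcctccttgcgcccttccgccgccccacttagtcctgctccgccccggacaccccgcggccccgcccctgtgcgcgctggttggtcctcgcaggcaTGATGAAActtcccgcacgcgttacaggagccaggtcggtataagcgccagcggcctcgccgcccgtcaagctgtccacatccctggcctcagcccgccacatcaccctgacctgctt
CHAC1, chr15:40953221-40953520: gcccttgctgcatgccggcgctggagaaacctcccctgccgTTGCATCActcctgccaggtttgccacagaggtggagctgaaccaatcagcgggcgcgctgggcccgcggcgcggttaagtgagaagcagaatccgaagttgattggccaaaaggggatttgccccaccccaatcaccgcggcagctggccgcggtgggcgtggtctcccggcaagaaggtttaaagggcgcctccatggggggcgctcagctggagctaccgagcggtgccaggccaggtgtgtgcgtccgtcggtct
AARS1, chr16:70289670-70289709: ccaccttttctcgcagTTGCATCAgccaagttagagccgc
BCAT1, chr12:24949126-24949165: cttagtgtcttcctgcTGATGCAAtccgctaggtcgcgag
CARS1, chr11:3057402-3057441: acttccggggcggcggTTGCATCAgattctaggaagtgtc

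The AARS1, BCAT1 and CARS1 windows are on the minus strand, with matches 187, 48 and 2 bases before the start. The other 3 called genes with a match were LOC100506858, LINC01133 and ALPK2, which like BCAT1 are outside the stress and amino acid lists. The promoters of CEBPG, DDIT3, TRIB3, PHGDH, PSAT1, MTHFD2 and ATF4 itself held 0 matches.

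Enzymes that make serine, glycine, asparagine and one-carbon units rose in 8 of 14 measured members, and 0 fell. Of all genes tested 0.26% rose and 0.083% fell. The first step of serine synthesis is catalysed by PHGDH, which gave 3505, 3065 and 3286 in the combination and 940.1, 784 and 552 in GSK212 (2.14 ± 0.20, adjusted p = 4.81e-09). The second is catalysed by PSAT1, which gave 6105, 7539 and 7119.6 in the combination and 1542, 1117 and 1972 in GSK212 (2.20 ± 0.19, adjusted p = 1.68e-09). PSPH, which completes the path, rose by 1.13 ± 0.22 (adjusted p = 0.00523), to 925, 835 and 941 in the combination, against 479, 341 and 422 in GSK212. All 3 steps from glycolysis to serine were thus higher on every combination array than on any GSK212 array, though averaged over all its probe sets PSAT1 was at 1.79 (adjusted p = 0.0607).

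Downstream of serine, 3 mitochondrial folate enzymes rose and 1, MTHFD1L, was at 1.03 ± 0.81, adjusted p = 0.66. SHMT2, which splits serine into glycine and a one-carbon unit, rose by 1.32 ± 0.27 (adjusted p = 0.00804), and MTHFD2, the next enzyme, by 1.78 ± 0.15 (adjusted p = 1.69e-09). MTHFD2 gave 3838, 4566 and 4442 in the combination and 1146, 989.9 and 1699 in GSK212. ALDH1L2, which ends the mitochondrial path, rose by 1.58 ± 0.33 (adjusted p = 0.0129) and CBS, which joins serine to homocysteine, by 1.77 ± 0.33 (adjusted p = 0.00296). CBS lost its call without GSK212 replicate 3 (1.47, adjusted p = 0.053) or combination replicate 1 (1.50, 0.056), SHMT2 without GSK212 replicate 3 (0.98, 0.13), PSPH without GSK212 replicate 2 (1.00, 0.065) and averaged over its probe sets (0.41, 0.613), and ALDH1L2 without GSK212 replicate 1 (1.18, 0.12) or combination replicate 2 (1.48, 0.074) or 3 (1.59, 0.059). PYCR1, which makes proline, passed the test and lay just under the fold threshold at 1.00 ± 0.23, adjusted p = 0.0273. ALDH18A1, an earlier proline enzyme, was at 0.02 ± 0.14 (adjusted p = 0.98), and CTH, which makes cysteine after CBS, at 0.51 ± 0.31 (adjusted p = 0.55).

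Outside the lists, the enzymes PCK2 and BCAT1 were called. PCK2, the mitochondrial enzyme of gluconeogenesis that makes phosphoenolpyruvate, gave 911, 1018 and 908 in the combination and 179, 192 and 182 in GSK212 (2.34 ± 0.20, adjusted p = 2.19e-09). BCAT1, which transfers the amino group of branched-chain amino acids, gave 3405, 3658 and 3592 in the combination and 1824, 1322 and 1163 in GSK212 (1.33 ± 0.16, adjusted p = 2.04e-06). Arrays of the groups lay far apart for both genes, though averaged over all its probe sets BCAT1 was at 0.76 (adjusted p = 0.18).

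Of 17 measured aminoacyl-tRNA synthetases, which load amino acids onto tRNA, 7 rose and 0 fell, beside 0.26% and 0.083% of all genes tested. The enzyme for tryptophan, WARS1, gave 4430.4, 4039 and 4224 in the combination and 1626, 1741 and 1032 in GSK212 (1.56 ± 0.24, adjusted p = 0.000133). The enzyme for glycine, GARS1, gave 8368, 7746 and 7638 in the combination and 3627, 3139 and 2077 in GSK212 (1.46 ± 0.17, adjusted p = 7.43e-07), and that for alanine, AARS1, gave 2518, 3764 and 2748 in the combination and 1174, 1133 and 904 in GSK212 (1.48 ± 0.17, adjusted p = 1.13e-06). SARS1 for serine and YARS1 for tyrosine rose by 1.30 each, and CARS1 for cysteine and EPRS1 for glutamate and proline by 1.14 and 1.11. CARS1 and EPRS1 lost the call more easily: without GSK212 replicate 3 they were at 0.91 (adjusted p = 0.081) and 0.93 (0.014), and without combination replicate 3 EPRS1 was at 0.98 (0.016), under the fold threshold. Averaged over all their probe sets they were at 0.56 (adjusted p = 0.354) and 0.69 (0.00105). The other 10 were not called. IARS1 for isoleucine was at 0.66 ± 0.16, adjusted p = 0.0415, below the fold threshold, while NARS1, TARS1, FARSA, LARS1, KARS1, HARS1 and VARS1 lay between 0.13 and 0.49, FARSB was at −0.04 and RARS1 at −0.88.

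Of 13 measured amino acid transporters 2 rose and 0 fell, with 8 higher and 2 lower at an unadjusted p under 0.05. Over all 18063 genes 0.26% rose, 0.083% fell and 1949 had such a p. SLC1A4, a carrier of alanine, serine and cysteine, gave 365, 260.2 and 267 in the combination and 104, 95.5 and 72.4 in GSK212 (1.68 ± 0.29, adjusted p = 0.000893). SLC1A5, the glutamine carrier, gave 354, 343 and 368 in the combination and 116, 124 and 128 in GSK212 (1.51 ± 0.24, adjusted p = 0.000373). SLC7A11, the cystine importer, and SLC7A5, the large neutral amino acid carrier, passed the test but not the fold threshold, at 0.91 ± 0.21, adjusted p = 0.0273 and 0.65 ± 0.14, adjusted p = 0.0137. SLC3A2, the shared heavy chain of both, was at 0.65 ± 0.16, adjusted p = 0.0645. The median over the 13 was 0.73. SLC7A2, an importer of cationic amino acids that was on none of the lists, was called at 2.61 ± 0.50, adjusted p = 0.00432. It gave 65.3, 83.6 and 26.4 in the combination and 5.18, 7.14 and 6.72 in GSK212, and without combination replicate 2 its adjusted p was 0.051. Averaged over all its probe sets it was at 0.97 (adjusted p = 0.445).

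EIF4EBP1, which represses cap-dependent translation, gave 3186, 2895 and 2683 in the combination and 1533, 1398 and 688 in GSK212 (1.35 ± 0.23, adjusted p = 0.00111). GRB10, an adaptor that inhibits insulin receptor signalling, gave 169, 179 and 175 in the combination and 47.5, 33.1 and 44.8 in GSK212 (2.01 ± 0.25, adjusted p = 4.45e-06). PMAIP1, which encodes the BH3-only death protein NOXA, was the 1 of 14 measured BCL2 family genes to be called, with 314, 217 and 389.8 in the combination and 57.5, 79.3 and 127 in GSK212 (1.80 ± 0.22, adjusted p = 1.7e-06). HMOX1, which degrades haem and is the 1 of 15 NRF2 targets to be called, gave 1489, 1499 and 1448 in the combination and 753, 391 and 517 in GSK212 (1.46 ± 0.18, adjusted p = 2.3e-06). The groups were well separated for these 4 genes, though without GSK212 replicate 3 EIF4EBP1 was at 0.99 (adjusted p = 0.031). JDP2, a repressor of AP-1 and ATF sites, passed at 1.35 ± 0.32, adjusted p = 0.0398, but its adjusted p was 0.084 to 0.19 without any one array other than GSK212 replicate 1.

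Among the 15 genes with the largest rises, LIN7A, ANKMY1, PNLDC1, LOC100506858 and LINC01133 had dim signals, as had GDF15 and SLC7A2. The GSK212 means of INHBE (18.4) and CHAC1 (31.0) were below the pooled median signal too. LIN7A, a polarity scaffold gene, gave 35.5, 34.4 and 49.1 in the combination and 0.950, 3.67 and 0.460 in GSK212 (3.29 ± 0.78, adjusted p = 0.0401), and ANKMY1 gave 27.2, 65.2 and 96.2 in the combination and 3.22, 8.07 and 4.78 in GSK212 (2.89 ± 0.66, adjusted p = 0.0277). In all, 17 of the 62 called genes had a group mean below the pooled median signal and 45 had both means above it. LIN7A kept its call in 8 of 20 other settings, ANKMY1 and PNLDC1 in 9 of 20, and on leaving out 1 of the 6 arrays LIN7A lost it in 6 of 6 cases and ANKMY1 and PNLDC1 in 5 of 6. Against 30 nM GSK212 the 3 genes were at 1.75, 1.53 and 0.52, with adjusted p of 0.276, 0.252 and 0.757.

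**Figure D2:**
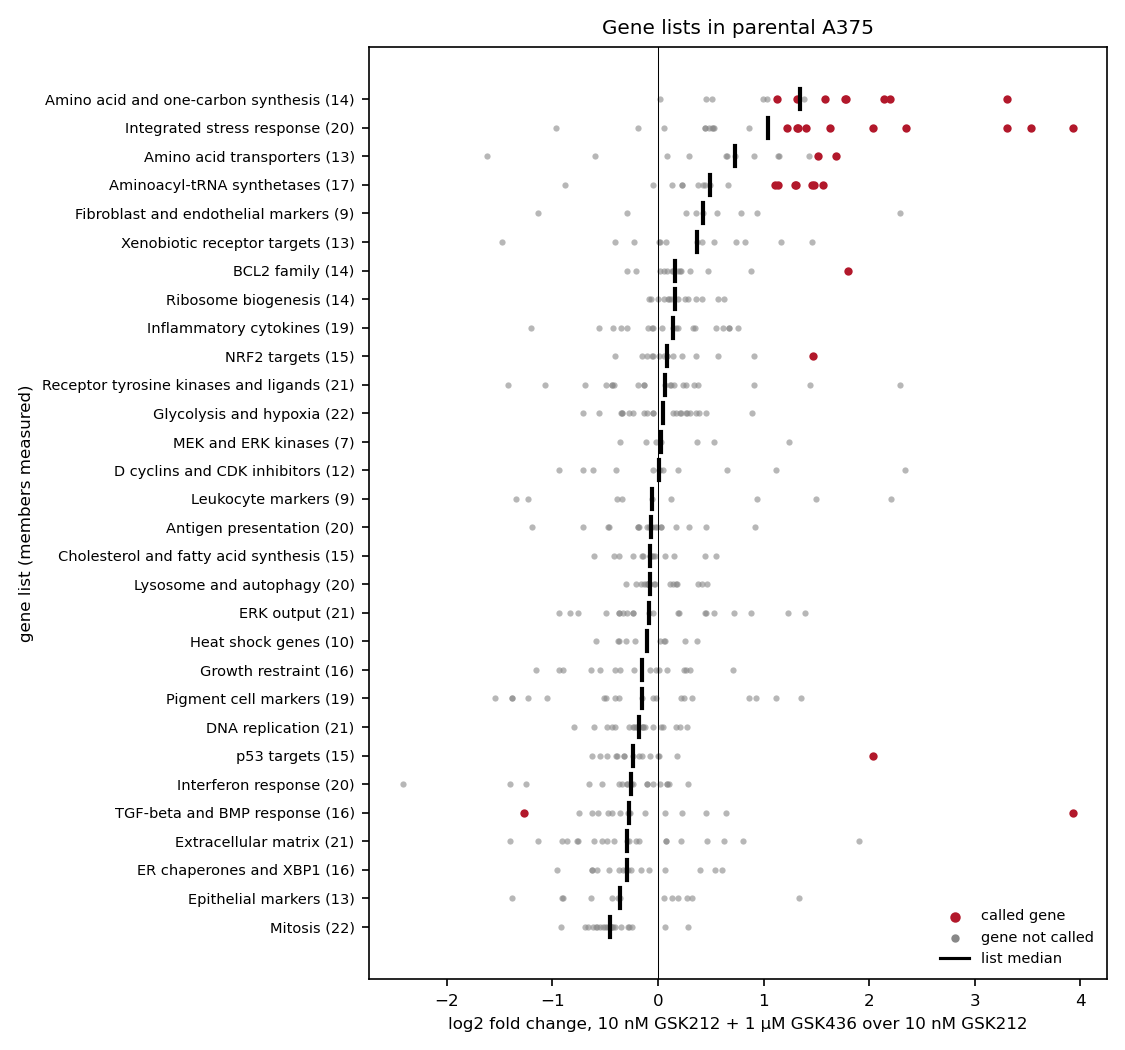
Log2 fold change, 10 nM GSK212 plus 1 µM GSK436 over 10 nM GSK212 alone, of every measured member of 30 gene lists in parental A375, with 1 point a gene, called genes in red and a bar at each list's median. The 4 lists at the top hold 26 of the called genes, and the ERK output list lies around 0 with a median of −0.08.

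Genes that report ERK signalling were already lower in GSK212 than in DMSO in 19 of 21 cases (4.09% of all genes tested were). On adding GSK436 limma called 0 of the 21 in either direction. An unadjusted p under 0.05 was found for 4 of them, 2 higher and 2 lower, and for 1949 of all 18063 genes. In GSK212 9 of the 21 had a mean below the pooled median signal, DUSP6 and EGR1 among them, where a further fall could hardly be measured. DUSP6, the phosphatase that ERK induces against itself, gave 45.8, 25.6 and 51.4 in the combination and 3.23, 38.7 and 20.4 in GSK212, where DMSO gave 2343, 2277 and 2899 (1.23 ± 0.57, adjusted p = 0.44). DUSP4, a related phosphatase, gave 36.4, 90.5 and 52.6 in the combination and 91.8, 44.7 and 50.8 in GSK212 (−0.08 ± 0.30, adjusted p = 0.95, 95% interval −0.70 to 0.53). The groups overlap for both phosphatases. FOSL1, an AP-1 factor, gave 242, 303 and 296 in the combination and 360, 241 and 165 in GSK212 (0.20 ± 0.29, adjusted p = 0.84, interval −0.40 to 0.79). Cyclin D1, CCND1, gave 446, 400.5 and 592 in the combination and 713, 447 and 224 in GSK212 (0.19 ± 0.30, adjusted p = 0.85, interval −0.42 to 0.80). FOSL1 and CCND1 overlap as well, and the intervals allow a change of either sign. The groups did not overlap for 3 of the 21, DUSP5, EGR1 and IER3, nor for 14.8% of all genes tested. DUSP5, another ERK phosphatase, gave 59.1, 87.8 and 69.2 in the combination and 52.1, 58.9 and 44.4 in GSK212 (0.45 ± 0.25, adjusted p = 0.53), and EGR1, an immediate-early factor, gave 56.2, 47.1 and 55.9 in the combination and 10.0, 24.8 and 23.9 in GSK212 (1.40 ± 0.60, adjusted p = 0.38). IER3, an immediate-early survival gene, gave 308, 289.8 and 293 in the combination and 714, 632 and 413 in GSK212, and it passed the test but not the fold threshold (−0.94 ± 0.18, adjusted p = 0.00523). With median-centred arrays IER3 was called lower at −1.34 and the median of the list was −0.49, against −0.08 as deposited.

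The remaining ERK output genes spanned a wide range with wide errors. ETV5, a PEA3 factor, was at 0.54 ± 0.58, the sprouty inhibitor SPRY2 at −0.33 ± 0.72 and the chromatin protein HMGA2 at −0.37 ± 0.20, none past the test (adjusted p = 0.77, 0.90 and 0.52). MAP2K1, which encodes MEK1, gave 242, 230.1 and 237 in the combination and 213, 276 and 473 in GSK212 (−0.36 ± 0.32, adjusted p = 0.71), and MAPK3, which encodes ERK1, was at 0.53 ± 0.25, adjusted p = 0.45. The 7 measured MEK, ERK, RSK and KSR genes held 0 called members. An unadjusted p under 0.05 was found for 2 of them, both higher, and for 1949 of all 18063 genes.

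Chaperones of the endoplasmic reticulum and XBP1, which belong to other arms of the unfolded protein response, had 0 of 16 measured members called by limma, with 7 at an unadjusted p under 0.05, 1 higher and 6 lower, and a median of −0.29. Limma called 0 cell cycle genes too. Of 21 DNA replication genes 4 had an unadjusted p under 0.05, all lower (median −0.18), and of 22 mitosis genes 11, all lower (median −0.46). Such a p was found for 1949 of all 18063 genes. Median-centred arrays gave medians of −0.70, −0.58 and −0.86 for these 3 lists.

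Of the 15 genes that fell, TGFBI and SLC2A13 alone kept the call on leaving out each of the 6 arrays in turn. The extracellular matrix list had 0 of 21 measured members called by limma, with 2 higher and 8 lower at an unadjusted p under 0.05. Over all 18063 genes, 1949 had such a p. TGFBI, a matrix protein induced by TGF-β, gave 1294, 1826 and 1749 in the combination and 3142, 4442 and 4181 in GSK212 (−1.27 ± 0.16, adjusted p = 2.9e-06). CCN3, a matricellular protein, gave 185, 164 and 162 in the combination and 286, 408 and 586 in GSK212 (−1.25 ± 0.22, adjusted p = 0.00138). NEDD9, a focal adhesion scaffold tied to melanoma invasion, gave 121, 122 and 125 in the combination and 244, 258 and 429.8 in GSK212 (−1.27 ± 0.31, adjusted p = 0.0490). CCN3 fell just short of the fold threshold without GSK212 replicate 3 (adjusted p = 0.035), and NEDD9 lost it without any one array but GSK212 replicate 1 (adjusted p 0.075 to 0.32) and, averaged over its probe sets, was at −0.50 (0.589).

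TM4SF1, a tetraspanin-like surface protein, gave 694, 622 and 602 in the combination and 1351, 1148 and 1358 in GSK212 (adjusted p = 1.72e-05), with a fold change at the threshold, and averaged over all its probe sets it was at −0.08 (adjusted p = 0.933). PODXL, a surface sialomucin, and NEFL, a neurofilament, were at −1.20 ± 0.28, adjusted p = 0.0374 and −1.02 ± 0.24, adjusted p = 0.0375. MMP1, a collagenase, was at −1.28 ± 0.27, adjusted p = 0.0115 and PTGES, which makes prostaglandin E2, at −1.25 ± 0.28, adjusted p = 0.0252. On leaving out each of the 6 arrays in turn, MMP1 lost the call in 3 fits, PODXL in 4, and PTGES and NEFL in 5 each. Without combination replicate 1 MMP1 was at −0.80 (adjusted p = 0.168). RUNDC3B, LMTK2, TMEM158 and FOXC2 showed larger folds from dim signals, between −2.32 and −1.70, and HSD17B11 and CARHSP1 were at −1.16 and −1.13. SLC2A13, an inositol transporter, gave 5.54, 24.4 and 22.7 in the combination and 62.7, 61.3 and 161 in GSK212 (−2.30 ± 0.41, adjusted p = 0.00148). Averaged over all probe sets for each gene, 5 of the 15 kept the call and SLC2A13 and CARHSP1 changed sign, to 0.50 and 0.16, so that their probe sets disagree. NEFL was at −0.47 (adjusted p = 0.504) and PTGES at −0.64 (0.360) in that setting. Of the 15, 5 kept the call without GSK212 replicate 2, 5 without GSK212 replicate 3 and 4 without combination replicate 3. A fit of only the groups compared kept 2 of the 15, and parental arrays alone 5. Against 30 nM GSK212 7 of them kept the call, and after quantile normalization 13 did.

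The stress and amino acid genes had no called member with 0.1 µM GSK436 and many with 1 µM. Adding 0.1 µM to 10 nM GSK212 changed 1 gene of 18063 (0.00554%; 1231 at an unadjusted p under 0.05), TRMT2A, named after its value was seen, which fell by 2.27 ± 0.37 (adjusted p = 0.0135). At that dose limma called 0 of the stress and amino acid genes, with 6 of 62 at an unadjusted p under 0.05. ASNS gave 461, 518 and 382 with no GSK436, 596, 587 and 552 with 0.1 µM and 4546, 4479 and 4377 with 1 µM. NUPR1 gave 327, 289.9 and 213 with no GSK436, 359, 265 and 267 with 0.1 µM and 1446, 1375 and 1368 with 1 µM. At 0.1 µM neither gene was called, with ASNS at 0.36 ± 0.14, adjusted p = 0.69, though every ASNS array lay above those without GSK436. Between 0.1 and 1 µM, 82 genes were called (0.454%), 59 higher and 23 lower, and 23 of the 62 stress and amino acid genes rose and 0 fell. ASNS rose by 2.94 ± 0.14 over this step (adjusted p = 1.01e-16) and TGFBI was at −0.91 ± 0.16, adjusted p = 0.00110. These steps share arrays with the comparison above and are not independent of it.

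**Figure D3:**
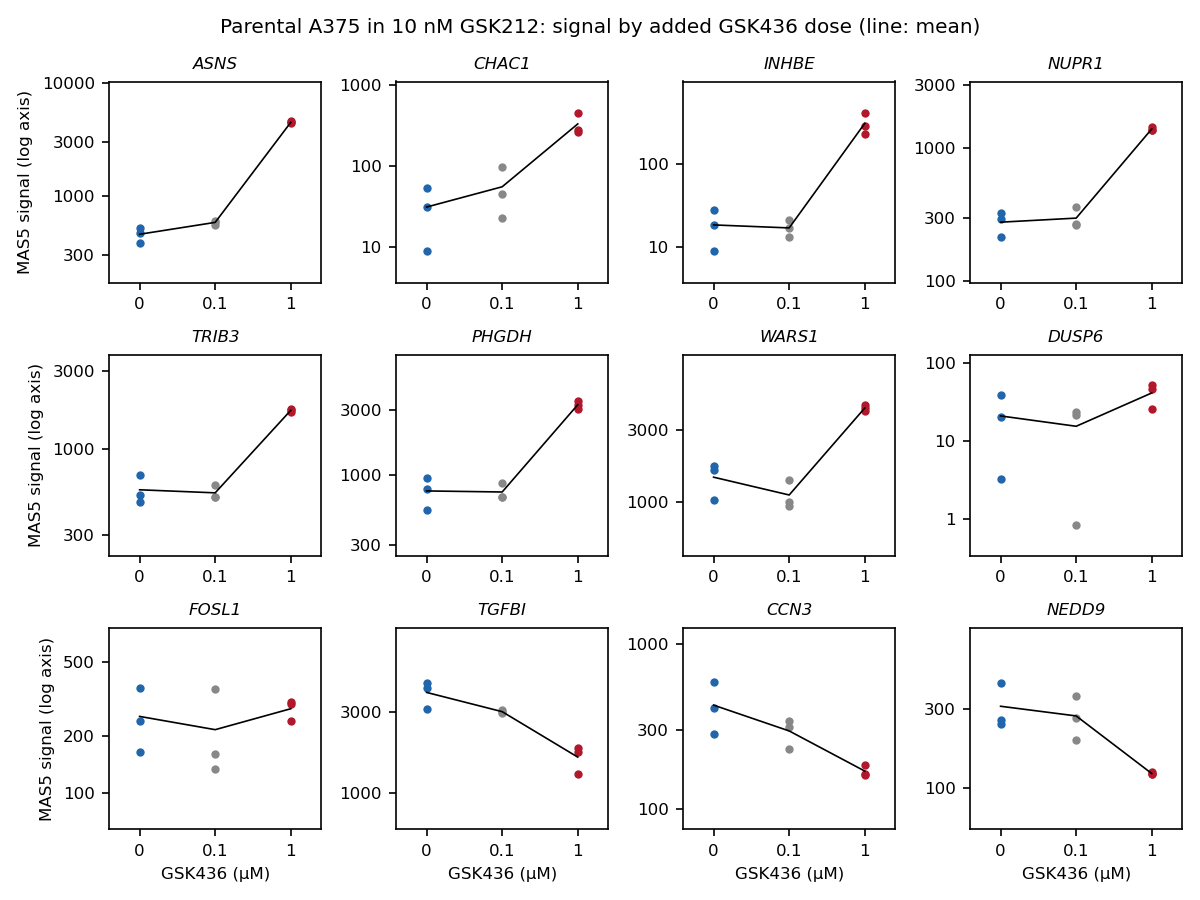
MAS5 signal (log axis) of 12 genes in parental A375 kept in 10 nM GSK212, at 0, 0.1 and 1 µM GSK436 (µM on the x axis, doses evenly spaced, 3 arrays a dose, line through the means). The 7 stress and amino acid genes at the top were not called at 0.1 µM, with log2 fold changes of 0.83 for CHAC1 and 0.36 for ASNS. They are higher at 1 µM, as ASNS at 4377 to 4546, beside 382 to 518 without GSK436 and 552 to 596 at 0.1 µM. FOSL1 overlaps across doses and TGFBI, CCN3 and NEDD9 are lowest at 1 µM.

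A higher dose of the MEK inhibitor was also measured. Between 30 and 10 nM GSK212, limma called 0 genes (0%), with 1203 at an unadjusted p under 0.05. Of the 62 stress and amino acid genes 8 were among these, 2 of them higher in 30 nM. ASNS gave 459 and 386 in 30 nM GSK212, ATF4 2989 and 2992 and CHAC1 12.1 and 45.7. Set against the 2 arrays of 30 nM in place of the 3 of 10 nM, the combination had 155 called genes (0.858%). Of the 62 stress and amino acid genes 26 rose and 0 fell, but they are not all the same genes as against 10 nM. Of the 62 genes called against 10 nM, 41 held, with 24 of the 26 in these lists and 7 of the 15 that fell. ALDH1L2 (0.80, adjusted p = 0.242) and PSPH (0.91, 0.0516) lost their calls. ATF4 was then at 1.50 ± 0.16, adjusted p = 1.01e-07, ASNS at 3.40 ± 0.15, adjusted p = 3.66e-17 and PHGDH at 2.65 ± 0.22, adjusted p = 9.05e-10. TGFBI was at −0.89 ± 0.18, adjusted p = 0.00529, under the fold threshold. The combination arrays are the same in both comparisons.

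The called genes stood at different levels relative to DMSO. Under 10 nM GSK212 alone, 2137 genes differed from DMSO (11.8%), 7.74% of the genes tested being higher and 4.09% lower in GSK212, and of the 47 genes that rose with added GSK436, 9 had been lower in GSK212 than in DMSO and 3 higher. GDF15 gave 48.0, 64.8 and 25.6 in the combination, 4.93, 3.80 and 25.2 in GSK212 and 111, 97.8 and 95.7 in DMSO, and PMAIP1 gave 314, 217 and 389.8 in the combination, 57.5, 79.3 and 127 in GSK212 and 826, 847 and 979.5 in DMSO. For both, the combination stood between the GSK212 and DMSO arrays. MTHFD2 gave 3838, 4566 and 4442 in the combination, 1146, 989.9 and 1699 in GSK212 and 4175, 4087 and 3794 in DMSO, so that the combination and DMSO overlap. SLC1A5 gave 354, 343 and 368 in the combination, 116, 124 and 128 in GSK212 and 447, 549 and 422 in DMSO, with the combination below every DMSO array. PSAT1 gave 6105, 7539 and 7119.6 in the combination, 1542, 1117 and 1972 in GSK212 and 3371, 3664 and 2634 in DMSO, and its combination arrays exceeded those of DMSO.

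ASNS, PHGDH and ATF4 were within the fold threshold between GSK212 and DMSO, at −0.48 ± 0.14, −0.35 ± 0.20 and −0.41 ± 0.14, and their combination arrays lay above every DMSO array. DMSO gave 651, 559.6 and 683 for ASNS, 837, 793 and 1279 for PHGDH and 4233, 4152 and 5085 for ATF4. NUPR1, at 21.1, 30.5 and 46.5 in DMSO, was already higher in GSK212, by 3.02 ± 0.21 (adjusted p = 8.68e-13). Among the 15 genes that fell with added GSK436, 4 had been higher in GSK212 than in DMSO and 3 lower. CCN3 gave 185, 164 and 162 in the combination, 286, 408 and 586 in GSK212 and 148, 169.5 and 150.5 in DMSO, and NEFL gave 1088, 1197 and 1206 in the combination, 1479, 2736 and 3252 in GSK212 and 784, 825 and 542 in DMSO. Both stood highest in GSK212. TMEM158 was already lower in GSK212 than in DMSO, with 13.6, 30.6 and 12.9 in the combination, 66.7, 69.0 and 74.4 in GSK212 and 592, 665 and 473 in DMSO. The GSK212 arrays enter both differences, so that a high or low value in them moves both in opposite directions.

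**Figure D4:**
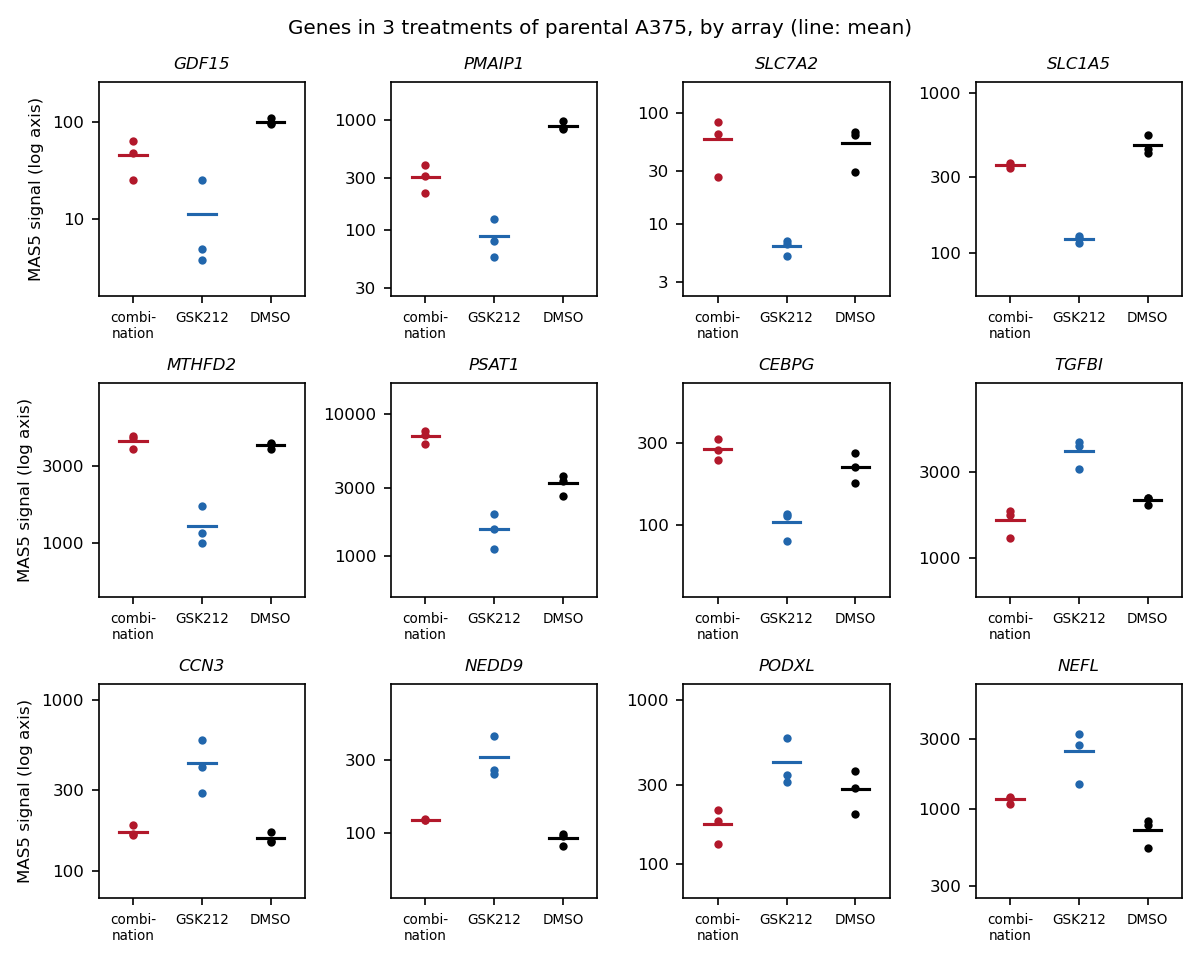
MAS5 signal (log axis) of 12 genes in parental A375 in 10 nM GSK212 plus 1 µM GSK436 (red), 10 nM GSK212 (blue) and DMSO (black), with 1 point an array and a line at the mean. For GDF15, PMAIP1, SLC1A5 and MTHFD2 the GSK212 arrays are the lowest, and for TGFBI, CCN3, NEDD9 and NEFL they are the highest.

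The same dose of GSK436 without GSK212 was measured on arrays that share none with the comparison. Against DMSO, 1 µM GSK436 alone changed 3549 genes (19.6%), among them 33 of the 62 stress and amino acid genes, 31 higher and 2 lower. RNA quality and scale moved with this contrast: the actin ratio was 23.3 to 32.6 in GSK436 alone and 4.59 to 12.0 in DMSO, the median signal 44.9 to 49.8 in GSK436 alone and 25.4 to 31.2 in DMSO, and the median change over all genes was 0.39. Their part in these counts was not tested. Of the 62 genes called with GSK212 present, 38 were called in the same direction (61.3% of them and 1.07% of the 3549), 32 higher and 6 lower, and 3 in the opposite direction. Over all genes tested, 63.2% had the same sign in both comparisons, as had 39 of the 47 that rose and 10 of the 15 that fell. ASNS gave 5297 and 5230.5 in GSK436 alone and 651, 559.6 and 683 in DMSO, a change of 3.06 ± 0.15 beside 3.30 ± 0.14 with GSK212 present. ATF4 was at 1.00 ± 0.16, PHGDH at 2.30 ± 0.22 and AARS1 at 1.38 ± 0.19, beside 1.33 ± 0.14, 2.14 ± 0.20 and 1.48 ± 0.17 with GSK212. Of the ERK output genes, 18 of 21 were lower (7.78% of all genes tested were) in GSK436 alone than in DMSO, with a median of −2.55.

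The difference between the 2 changes, with minus without GSK212, was tested in the same fit, and 1733 genes passed (9.59%), with a difference above 0 for 4.01% and below 0 for 5.58% of the genes tested. Of the ERK output genes 15 passed, all above 0. Of the 26 stress and amino acid genes that rose, 8 passed. NUPR1, WARS1 and DDIT3 rose less with GSK212 present, at −3.39 ± 0.32, adjusted p = 4.36e-09, −1.08 ± 0.36, adjusted p = 0.0421 and −1.26 ± 0.27, adjusted p = 0.00168. NUPR1 gave 1446, 1375 and 1368 in the combination and 1726 and 1899 in GSK436 alone, beside 327, 289.9 and 213 in GSK212 and 21.1, 30.5 and 46.5 in DMSO. GDF15, SLC1A5, MTHFD2, PSAT1 and CEBPG had differences above 0, of 3.45, 1.82, 1.60, 1.13 and 1.00 (adjusted p = 0.00148, 0.000876, 8.29e-06, 0.00597 and 0.0204). In the same order, GSK212 alone was at −3.21, −1.92, −1.69, −1.08 and −1.05 against DMSO. PSAT1 gave 6105, 7539 and 7119.6 in the combination and 7029 and 6390 in GSK436 alone, which overlap. A difference above 0 therefore does not mean a higher level in the combination than in GSK436 alone. GDF15 fell with GSK436 alone by 1.42 ± 0.55 against DMSO (adjusted p = 0.0484), with 79.6 and 15.7 in GSK436 alone. PMAIP1 likewise fell with GSK436 alone, by 1.20 ± 0.24, and the difference was 3.00 ± 0.32, adjusted p = 6.26e-08. For the other 18 of the 26 the difference did not pass, as for ASNS at 0.24 ± 0.21, adjusted p = 0.51 and ATF4 at 0.32 ± 0.21, adjusted p = 0.35, which does not show that the changes are equal.

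**Figure D5:**
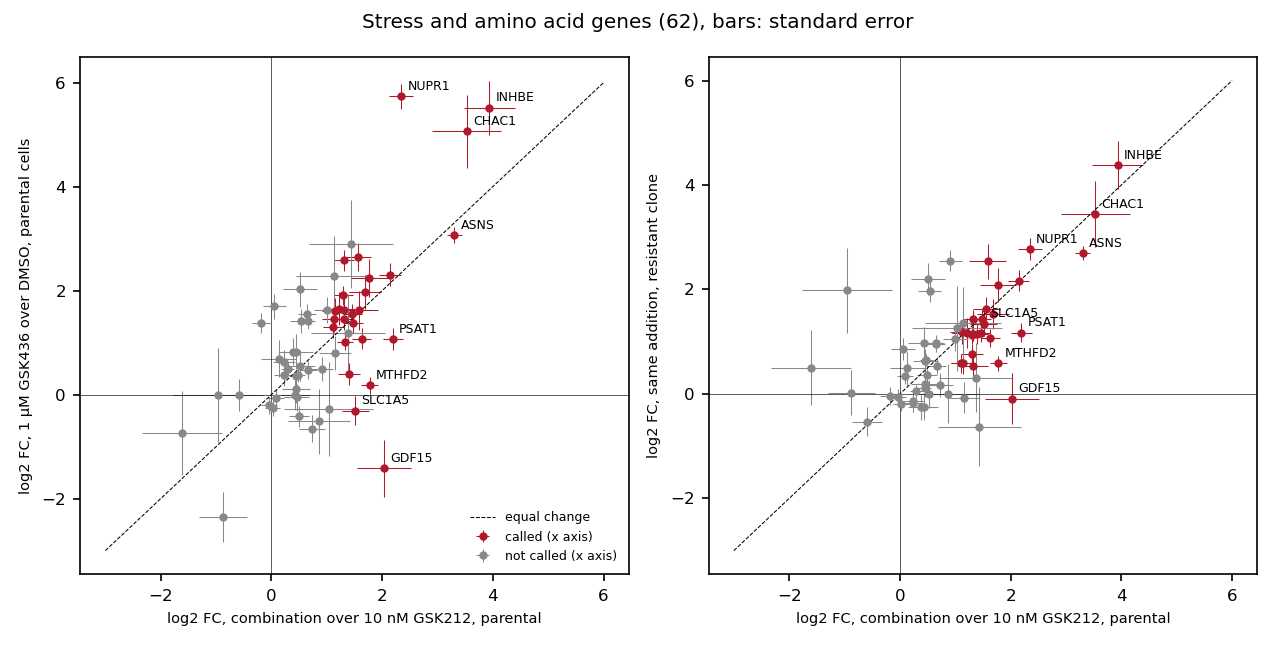
Log2 fold change of 62 stress and amino acid genes in parental A375, 10 nM GSK212 plus 1 µM GSK436 over 10 nM GSK212 (x axis), against that of 1 µM GSK436 over DMSO in parental cells (left) and of the same addition in the resistant clone (right), with standard errors as bars and called genes of the x axis in red. ASNS is at 3.06 on the left and 2.70 on the right beside 3.30 on the x axis, NUPR1 lies above the line of equal change at 5.74 on the left, and GDF15 below it at −1.42 and −0.09.

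In the resistant clone, 1 µM GSK436 added to 10 nM GSK212 was measured on other arrays again. It changed 100 genes (0.554%), 65 higher and 35 lower, and 24 of the 62 stress and amino acid genes rose and 0 fell. Of the 62 genes called in parental cells, 23 were called in the same direction in the clone (37.1% of them and 23% of the 100), 22 higher and 1 lower, and 0 in the opposite direction, with 49.9% of all genes tested sharing a sign. ASNS gave 4497, 4983 and 5046 in the clone's combination and 729, 737 and 759 in its GSK212 arrays (2.70 ± 0.14, adjusted p = 1.43e-15). ATF4 gave 6868, 7002 and 8068 in the clone's combination and 3636, 2983 and 3321 in its GSK212 arrays (1.14 ± 0.14, adjusted p = 1.94e-06). Neither gene overlapped between these groups. The actin ratio was 3.72 to 12.1 on the clone's combination arrays and 13.7 to 27.4 on its GSK212 arrays, so that the mean ratio was lower in the combination of the clone (8.16 against 22.7) and higher in that of parental cells (22.3 against 17.8).

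The parental minus the resistant change passed the test for 42 genes (0.233%), above 0 for 0.0997% and below 0 for 0.133% of the genes tested, of which MTHFD2, PMAIP1, TGFBI and LINC00664 were among the 62. MTHFD2 rose in parental cells and was at 0.58 ± 0.15, adjusted p = 0.0436 in the clone, where its GSK212 arrays stood at 4196, 4359 and 4028 (difference 1.19 ± 0.22, adjusted p = 0.00739). PMAIP1 was at 0.23 ± 0.22, adjusted p = 0.80 in the clone, with 1203, 991 and 967 in the combination and 967, 912 and 812 in GSK212 (difference 1.57 ± 0.31, adjusted p = 0.0158). TGFBI was at 0.06 ± 0.16, adjusted p = 0.95 in the clone (difference −1.34 ± 0.22, adjusted p = 0.00425). In the ERK output list the clone had 6 of 21 members lower (DUSP4, DUSP5, FOSL1, IER3, CCND1 and EPHA2), as had 0.194% of all genes tested. The list median was −0.79 in the clone, and parental cells had 0 called members. The difference passed for CCND1 (2.03 ± 0.42, adjusted p = 0.0205) and DUSP5 (1.59 ± 0.35, adjusted p = 0.0373) and for no other member. In the clone CCND1 gave 137, 129.8 and 127 in the combination and 517, 439.7 and 479 in GSK212. DDIT4 rose in the clone by 1.97 ± 0.21 (adjusted p = 1.02e-07), and parental minus resistant the difference was −1.43 ± 0.29, adjusted p = 0.0176. The same difference passed for SLC7A11 (−1.64 ± 0.29, adjusted p = 0.00662).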

How the data were processed

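The data are 38 Affymetrix arrays of one colour, with 54675 probe sets, in 14 groups taken from the labels. The deposited values are linear intensities made by the authors with MAS5, per the submitters' processing notes; its version and settings are not given in the sources used here. Trimmed means of 149.837 to 149.957 show a common scaling. From these intensities log2(signal + 2.8) was computed, 2.8 being the 10th percentile of the deposited intensities, so that folds of dim genes are understated. Probe sets above the pooled median of 34.88 on at least 2 arrays were kept (35888), 41097 of the 54675 had 1 gene symbol, 1801 had several and 11777 none, and the brightest probe set stood for each of 18063 genes. Limma 3.58.1 in R 4.3.3 (lmFit on 14 group means, 24 residual degrees of freedom, eBayes with trend) gave differences, standard errors and p-values adjusted by Benjamini and Hochberg. Interaction terms tested differences between changes. Other software was the package data.table (1.17.8), Python 3.11.15, numpy 2.4.6, pandas 2.3.3 and matplotlib 3.10.9. The fit was run on simulated data with independent noise and changes in the combination group only. That simulation held no shift of scale or RNA quality, so it cannot speak to their part in the results.

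The groups compared and the 30 gene lists (533 members, 470 measured) were chosen with earlier results of these data known. Named were the called genes with arrays that do not overlap, the first 15 in each direction by size of change, up to 4 called members of each list, all measured members of the ERK output and integrated stress response lists, the MEK and ERK kinase genes, and the first 5 in each direction of both differences between changes. Other genes named (among them ALDH1L2, BCAT1, CARS1, CBS, EIF4EBP1, EPRS1, JDP2, PSPH, SARS1, SHMT2, TRMT2A and the uncalled enzymes, synthetases and transporters) were chosen after their values were seen. Of 703 pairs of arrays 0 held identical values. Arrays with the same replicate number in the combination and in GSK212 had deviations from their group means correlated at 0.03, −0.04 and −0.0024 across genes, so the numbers were not taken to pair arrays. Alternatives changed the normalization, pseudocount, filter, probe set rule, variance model, arrays in the fit, replicate block, array weights, RNA quality and the arrays left out. Labels and files gave no scan or extraction batch. Promoters came from RefSeq (GRCh38.p14).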

Additional observations from a re-analysis of the deposited data

Results flagged for a closer look

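The change with 1 µM GSK436 differed in parental cells with and without 10 nM GSK212, by an interaction term that passed adjustment over all genes, for these named genes. On the log2 scale, with minus without GSK212, the difference was above 0 for COL13A1 (7.78), DUSP6 (6.06), SLCO4A1 (5.44), NT5E (4.58), FST (4.46), SLC7A2 (3.83), ANKMY1 (3.46), GDF15 (3.45), LOC100506858 (3.07), PMAIP1 (3.00), SLC1A5 (1.82), MTHFD2 (1.60), PSAT1 (1.13) and CEBPG (1.00). It was below 0 for MGP (−9.20), SLC2A12 (−6.63), KRT13 (−6.10), S100P (−6.02), CLIP3 (−5.45), NUPR1 (−3.39), RUNDC3B (−2.70), PTGES (−2.60), NEDD9 (−1.77), CCN3 (−1.44), CARHSP1 (−1.35), DDIT3 (−1.26) and WARS1 (−1.08). For DUSP6 and COL13A1 the values above 0 stand beside changes of −4.83 and −5.87 with GSK436 alone, and for MGP, SLC2A12 and KRT13 the values below 0 beside 7.81, 5.70 and 5.19.

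The change with 1 µM GSK436 added to 10 nM GSK212 differed between parental cells and the resistant clone, by the same kind of test. Parental minus resistant, the difference was above 0 for WFDC5 (5.01), COL13A1 (3.60), LINC00973 (2.34), CCND1 (2.03), PTX3 (1.98), PMAIP1 (1.57) and MTHFD2 (1.19). It was below 0 for CCN5 (−4.75), POLD4 (−2.13), C3 (−1.92), CD24 (−1.92), C1RL (−1.87) and TGFBI (−1.34). The sizes for MGP depend on the constant of 2.8 added to signals, since its DMSO arrays lie below it. Dixon's test for outlying arrays was not applied to groups of 2 or 3. The array weights estimated by limma were 0.726, 0.879 and 0.994 for the combination arrays and 0.635, 2.32 and 0.312 for GSK212 replicates 1, 2 and 3.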

How the results depend on the processing

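Of 21 alternatives, the filter at the 75th percentile gave values for 57 of the 62 called genes and the others for all 62. Where measured, the genes kept their sign except SLC2A13 and CARHSP1, which reversed to 0.50 and 0.16 when all probe sets for each gene were averaged. Of the 62, 9 kept the call in every setting that measured them, as did 7 of the 26 stress and amino acid genes, and on leaving out each of the 6 arrays in turn 27 and 18 kept it. Leaving out 1 array gave 46 to 79 genes, 39 to 57 higher and 6 to 27 lower. Of these, 6 fell without GSK212 replicate 2 or 3, 8 without combination replicate 3 and 27 without combination replicate 2. The members that rose were then 8 to 9 for the stress response, 6 to 8 for synthesis, 2 to 3 for transporters and 5 to 7 for synthetases, with 0 to 1 ERK output gene lower. The step from 0.1 to 1 µM gave 45 to 155 genes, with 155 without 0.1 µM replicate 1 and at most 54 without 0.1 µM replicate 2 or 3 or combination replicate 1 or 3. The difference from GSK436 alone gave 976 to 2513, 976 being without GSK436 replicate 3. That between the lines gave 13 to 51, being 14 without parental combination replicate 3, 13 without the clone's combination replicate 1, and 14, 26 and 23 without its GSK212 replicates 1, 2 and 3.

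Median centring gave 18 higher and 55 lower genes, 36 for the dose step, 988 and 17 for the differences from GSK436 alone and between the lines, 5 stress response, 5 synthesis, 1 transporter and 3 synthetase genes higher and 1 ERK output gene lower. Quantile normalization gave 26 lower, 160 for the dose step and 4 transporters. Averaged probe sets gave 5 lower, 54 for the dose step and 5 synthesis genes. A fit of only the groups compared gave 30 genes (24 higher, 6 lower), 5 synthesis genes, 311 for the dose step and 20 between the lines, and parental arrays alone gave 9 lower and 53 for the dose step. Array weights gave 140 genes (106 higher, 34 lower), 798 for the dose step, 3368 and 159 for the differences, 1 ERK output gene lower and 4 transporters. The actin covariate gave 50 for the dose step and 65 between the lines, and 30 nM GSK212 as control 155 genes (95 higher, 60 lower). Without arrays with an actin ratio above 20, chosen after seeing the data, 33 genes were called, 17 higher, with 40 for the dose step and 4 stress response, 4 synthesis, 0 transporter and 3 synthetase genes; fewer arrays were then fitted. For the other settings the cause was not tested. The replicate block, whose numbers were not taken to pair the arrays, gave 57 genes (44 higher, 13 lower), with 55 of the 62 kept. Signals below the pooled median limit 17 of the 62 called genes.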

Other observations

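Genes far from the stress response also differed between the additions of GSK436. MGP, a matrix protein that inhibits calcification, was at −1.40 ± 0.49 when GSK436 was added to GSK212 (adjusted p = 0.25), against 7.81 ± 0.54 with GSK436 alone (adjusted p = 9.37e-13). It gave 1037, 1152 and 985 in the combination, 2416, 3109 and 2871 in GSK212, 1112 and 856 in GSK436 alone and 1.33, 2.01 and 1.38 in DMSO, so that the 3 groups with an inhibitor were all above DMSO. The DMSO signals of MGP lie below the added 2.8, so the size of its change against DMSO depends on that constant. COL13A1, a transmembrane collagen, gave 31.6, 16.0 and 47.1 in the combination, 21.9, 2.03 and 2.30 in GSK212, 5.28 and 43.9 in GSK436 alone and 1161, 1047 and 1199.5 in DMSO, all 3 below DMSO. FST, which binds and blocks activins, gave 105, 119.5 and 129 in the combination, 129.6, 75.9 and 40.8 in GSK212, 129.8 and 190.4 in GSK436 alone and 2222, 2062 and 2513 in DMSO.

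CD24, a surface sialoglycoprotein, rose in the resistant clone when GSK436 was added to GSK212 (1.57 ± 0.17, adjusted p = 2.5e-07) and was at −0.35 ± 0.17, adjusted p = 0.45 in parental cells. It gave 3189.6, 3591 and 2907 in the parental combination and 4026, 3957 and 4369 in parental GSK212, with 1826, 2104 and 2122 in the clone's combination and 696, 714 and 628 in its GSK212 arrays. POLD4, a small subunit of DNA polymerase delta, rose in the clone (1.83 ± 0.26, adjusted p = 4.3e-05) and was at −0.30 ± 0.26, adjusted p = 0.70 in parental cells. PTX3, a secreted pattern recognition protein, fell in the clone (−2.28 ± 0.20, adjusted p = 1.67e-09) and was at −0.30 ± 0.20, adjusted p = 0.59 in parental cells.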
